A study of Mus musculus with 4 samples.

Results

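The cells described here are the haematopoietic stem cell-like (HSC-like) cells of mouse bone marrow, chosen by the stem cell genes that they transcribe. Among 39167 cells with 200 to 10000 detected genes and at most 10% mitochondrial transcripts, 109 cells (0.278%) carried at least 2 unique molecular identifiers (UMIs, each counted as 1 captured transcript) over Hlf, Mecom, Procr and Meis1 together. They also had to carry at most 2 UMIs of the myeloid gene Mpo, none of the B cell receptor genes Cd79a and Cd79b, none of the plasmacytoid dendritic cell gene Siglech and at most 1 of the megakaryocyte gene Pf4. Mononuclear cells were flushed from femurs and tibias of C57BL/6 mice, separated on Ficoll and sequenced from their 5′ ends, with 1 mouse per library and 2 libraries each of TLR9-/- and wildtype (WT) animals. TLR9-/- mice lack the receptor for unmethylated CpG DNA. The genotypes were bred in separate cages, so genotype and cage cannot be told apart. The sources used here do not give the age of the sequenced mice or say which part of Tlr9 is disrupted. Over all kept cells Tlr9 stood at 0.82 and 0.75 CPM in TLR9-/- 1 and 2. It stood at 3.84 and 2.34 CPM in WT 1 and 2, above both TLR9-/- libraries. With the disrupted part unknown, these 5′ tags cannot show whether it is missing. The mice were profiled in 2 experiments, each with a mouse of either genotype, and the labels do not say whether the library numbers mark them. Their sex is not given, but each library held Xist at 450 to 723 CPM over all kept cells and no UMI of Ddx3y, Uty or Eif2s3y, which lie on the Y chromosome. The TLR9-/- libraries numbered 1 and 2 gave 39 and 27 HSC-like cells, and the WT libraries 13 and 30. Their median depth was 4766, 6430, 4640 and 4395.5 UMIs in that order, against 2545, 3618, 1759 and 2287 UMIs in all cells kept. Summed over the HSC-like cells of a library, 227492, 214900, 72310 and 191386 UMIs were available, and 3 UMIs correspond to 13.2, 14.0, 41.5 and 15.7 CPM (UMIs of a gene scaled to a common total per library), so WT 1 was the least precise library.

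Haematopoietic stem cells sit at the top of the blood lineage tree, renew themselves and give rise to multipotent progenitors, which then take up lymphoid, myeloid or megakaryocyte and erythroid programmes. Most stem cells of the adult marrow are quiescent, and they are known to sense infection and inflammation through cytokine receptors and, in some settings, Toll-like receptors. Hlf and Meis1 encode transcription factors of stem cell self-renewal, Mecom encodes the zinc finger factor Evi1, Procr encodes the endothelial protein C receptor CD201 of long-term stem cells, and Ifitm1 encodes an interferon-induced membrane protein.

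Hlf and Meis1 carried most of the gate, and Ifitm1 was the one proposed marker that the gate did not use. The 150 bases before their RefSeq transcription starts on the GRCm38.p6 assembly are given 5′ to 3′ on the gene's strand, with the motifs found in capitals. The Hlf window is chr11:90390918-90391067 on the minus strand, the Meis1 window chr11:19018970-19019119 on the minus strand and the Ifitm1 window chr7:140967926-140968075 on the plus strand.
Hlf: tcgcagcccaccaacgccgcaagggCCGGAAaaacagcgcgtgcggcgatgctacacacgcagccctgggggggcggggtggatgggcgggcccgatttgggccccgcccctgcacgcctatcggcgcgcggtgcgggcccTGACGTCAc
Meis1: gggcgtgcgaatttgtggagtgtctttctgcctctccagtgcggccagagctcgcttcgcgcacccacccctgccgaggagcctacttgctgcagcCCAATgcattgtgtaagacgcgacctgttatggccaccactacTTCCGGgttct
Ifitm1: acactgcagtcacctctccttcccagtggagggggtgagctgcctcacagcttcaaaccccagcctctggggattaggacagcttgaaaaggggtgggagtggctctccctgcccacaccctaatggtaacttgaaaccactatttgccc
The motifs searched on both strands were AGATAA for the factors of the erythroid and stem cell GATA family, CCGGAA for ETS factors, TGTGGT for RUNX factors, TGANTCA for AP-1, TGACAG for MEIS and related factors, CCAAT for NF-Y, and TGACGTCA, the cyclic AMP response element. Hlf held CCGGAA and, just before the start, TGACGTCA. Meis1 held CCAAT and, on the opposite strand, CCGGAA. The Ifitm1 window held none of these letters. Among 32851 mouse promoter windows of the same length, 9.23% held CCGGAA, 24.5% held CCAAT and 1.36% held TGACGTCA, so the first 2 are common and a match is a description of letters, not of a bound site.

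Within the gate, Hlf was found in 84 of the 109 cells with 194 UMIs, Meis1 in 66 cells with 97 UMIs, Procr in 25 cells with 33 UMIs and Mecom in 19 cells with 20 UMIs. Hlf alone admitted 27 cells, Meis1 alone 11, Procr alone 1 and Mecom alone none. At least 2 of the 4 genes were detected in 70 cells, most often Hlf with Meis1 and nothing else (30 cells), and all 4 genes in 1 cell. Hlf stood at 312 and 233 CPM in TLR9-/- 1 and 2 and at 332 and 256 CPM in WT 1 and 2. Meis1 stood at 149, 135, 69.1 and 152 CPM in the same order. Mecom stood at 30.8, 27.9, 41.5 and 20.9 CPM, and Procr at 44.0, 46.5, 69.1 and 41.8 CPM. These 4 genes chose the cells, so their levels are a description. The gate sum was 2 UMIs in 49 cells, 3 in 29 and at least 4 in 31. Just outside the threshold, 202 cells with 1 gate UMI had 490 CPM of Ifitm1, which was detected in 42.1% of them. Just inside it, cells with 2 gate UMIs had 1044 CPM of Ifitm1 in 79.6% of cells, and those with at least 4 had 1343 CPM in 100% of cells.

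The label was checked against markers that the gate did not use. The clearest departure was in 10 of the 109 cells, and 11 cells, in part the same, carried at least 3 UMIs of erythroid or of T and NK cell markers. In the 10 cells (1, 2, 2 and 5 in TLR9-/- 1, TLR9-/- 2, WT 1 and WT 2), 17.2 to 58.7% of UMIs came from neutrophil granule and alarmin genes such as S100a8, S100a9, Camp and Ngp, against at most 0.257% in each of the other 99. They held 18.9% of all UMIs of the HSC-like cells at a median of 13945 UMIs per cell, against 5049 in the other 99. In 9 of the 10 the gate sum was exactly 2 UMIs, and the doublet procedure marked 3 of them. Ifitm1 was found in 3 of the 10 and in 94 of the 99, Cd34 in 1 and 62, Ly6a in 1 and 57, and Flt3 in none of the 10 against 40 of the 99. Cd48, a SLAM family receptor gene whose protein many but not all multipotent progenitors carry and long-term stem cells lack, was found in 3 of the 10 and 38 of the 99. By library it was detected in 51.3, 33.3, 46.2 and 20% of the HSC-like cells in the order above, in 61.0 to 81.7% of Mpo progenitors and in 24.3 to 31.5% of B lineage cells (at least 2 Cd79a UMIs). Summed over all HSC-like cells of a library, the neutrophil genes reached 11912.5 CPM in TLR9-/- 1, 67622 CPM in TLR9-/- 2, 151265 CPM in WT 1 and 121550 CPM in WT 2. The neutrophil signal was thus higher in both WT libraries, and the 10 cells, which were singled out after their values were seen, were left out as an alternative in the genotype comparisons.

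**Figure D1:**
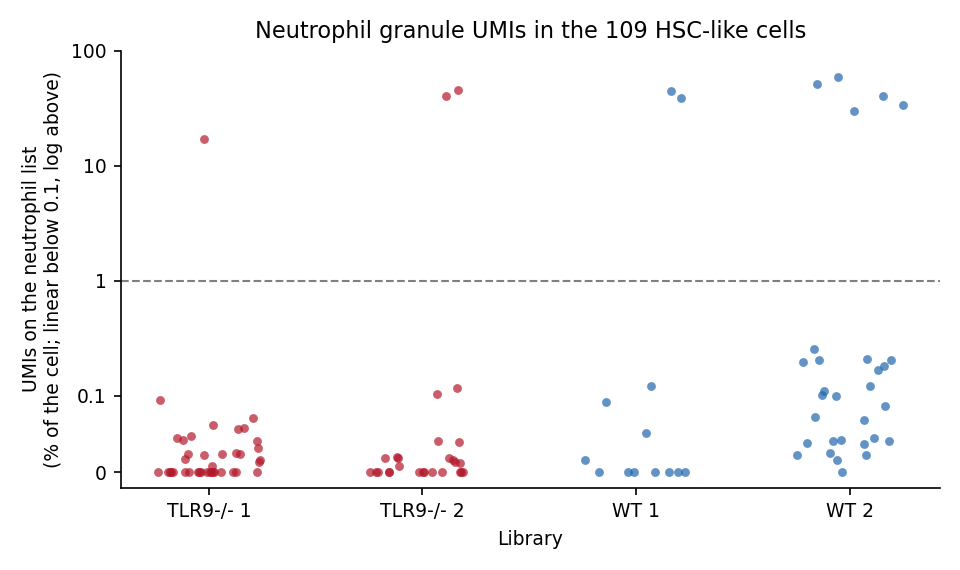
Share of each HSC-like cell's UMIs on the neutrophil marker list (y axis, percent, linear below 0.1 and logarithmic above) by library (x axis), with 1 point per cell and a dashed line at 1%. The 10 cells rich in neutrophil transcripts lie between 17.2 and 58.7% and every other cell is at or below 0.257%.

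In the other 99 cells, markers of further cell types were mostly sparse. Neutrophil genes still gave 183 UMIs, with at least 3 UMIs in 25 cells, and plasmacytoid dendritic cell genes 150 UMIs, with at least 3 in 14 cells, of which Bcl11a, a transcription factor gene that stem cells also use, gave 93. Erythroid genes gave 767 UMIs, of which 467 lay in 1 cell, and monocyte genes 132 UMIs, of which 64 lay in 1 cell. B lineage genes outside the gate gave 36 UMIs, T and NK cell genes 11, platelet genes 12, basophil genes 11 and plasma cell genes 3. The endothelial list gave 130 UMIs, led by Egfl7, a secreted factor that stem cells also transcribe, whereas the endothelial genes Cdh5, Ptprb and Stab2 were at 0. With the neutrophil-rich cells counted, 22 of the 30 HSC-like cells of WT 2 carried at least 3 UMIs of neutrophil genes. S100a8 was detected in 73.3% of the HSC-like cells of WT 2 and in 67.2% of its B lineage cells (at least 2 Cd79a UMIs).

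Stem cell markers outside the gate were high in these cells. Ifitm1 stood at 1600 and 879 CPM in TLR9-/- 1 and 2 and at 913 and 961 CPM in WT 1 and 2. It was detected in 76.9 to 97.4% of the HSC-like cells of a library, against 2.26 to 6.07% of B lineage cells of the same library (at least 2 Cd79a UMIs), which are shallower, with medians between 1324.5 and 1846 UMIs. Mean Ifitm1 was 1088 CPM ± 343 (SD, n = 4 libraries) in HSC-like cells, 166 CPM in Mpo progenitors (734 cells with at least 3 Mpo UMIs and a Kit UMI), 408 CPM in lymphoid-primed progenitors (118 cells with Flt3 and Dntt) and 189 CPM in megakaryocyte progenitors (76 cells with at least 2 Pf4 UMIs and an Itga2b UMI). Ly6a encodes Sca-1, the surface protein by which mouse stem cells are sorted. It stood at 158, 140, 304 and 246 CPM in TLR9-/- 1, TLR9-/- 2, WT 1 and WT 2, with both WT libraries above both TLR9-/- libraries, against 7.02 CPM on average in Mpo progenitors and 99.2 CPM in lymphoid-primed progenitors. Ly6a is also transcribed by mature cells, and 12.3 to 26.1% of B lineage cells had a UMI of it, against 44.4 to 69.2% of HSC-like cells.

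Other stem cell genes showed the same contrast with varying evenness. Gcnt2, a glycosyltransferase gene, was even between libraries, at 87.9, 79.1, 83.0 and 83.6 CPM, against 5.13 CPM in Mpo progenitors. Adgrg1, which encodes the adhesion receptor GPR56, stood at 264, 349, 360 and 376 CPM, and Angpt1, a ligand of the stem cell receptor Tie2, at 154, 223, 166 and 157 CPM. Ctla2a stood at 426, 409, 470 and 303 CPM, far above the 21.5 CPM of Mpo progenitors but below the 1276 CPM of megakaryocyte progenitors. Pdzk1ip1, which encodes a membrane protein, was uneven, at 149, 181, 360 and 88.8 CPM. In WT 1, 16 of its 26 UMIs came from 1 cell. Kit, the receptor of stem cell factor, averaged 176 CPM against 110 CPM in Mpo progenitors that were chosen on it, and Cd34 186 CPM against 79.0 CPM. Kit was uneven, on 33, 21, 21 and 33 UMIs in TLR9-/- 1, TLR9-/- 2, WT 1 and WT 2. After TMM scaling these were 134, 97.1, 301 and 181 CPM, with WT 1 the highest. Kit was found together with Ly6a in 37 cells and with Cd34 in 34. Detection was too sparse for Slamf1 (CD150, 2 cells), Fgd5 (3 cells) and Tek (Tie2, 1 cell) to sort the 109 cells into finer stem cell classes. Of 36 stem cell genes outside the gate, 25 were higher than in Mpo progenitors in all 4 libraries and none was lower in all 4, and against megakaryocyte progenitors 11 were higher and 5 lower. Among all 12253 genes with a UMI in HSC-like cells, 13.1% were higher and 10.9% lower than in Mpo progenitors in all 4 libraries, and 6.71% higher and 7.44% lower than in megakaryocyte progenitors. The cells were chosen on the same measurement, so no test is given.

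**Figure D2:**
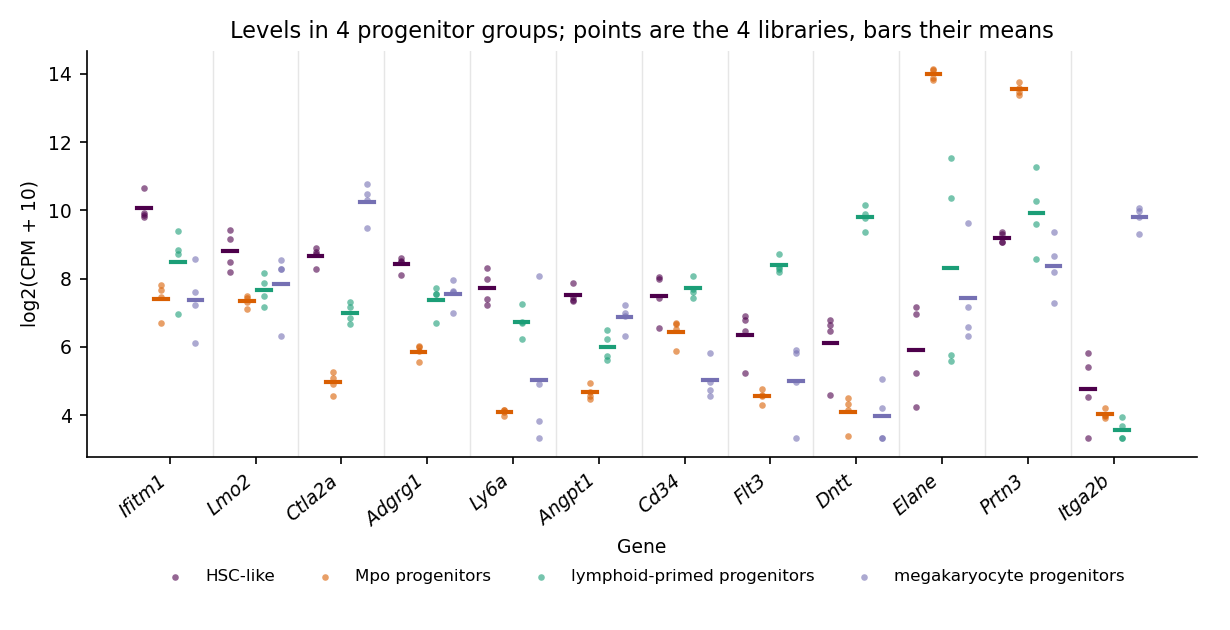
Levels, as log2(CPM + 10), of stem cell and lineage genes in HSC-like cells and in 3 groups of comparison progenitors, by gene, with 1 point per library and a bar at the mean of the 4 libraries. Ifitm1 and Ly6a lie above their levels in Mpo progenitors in all 4 libraries, and the granule genes lie below.

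Across the transcriptome, 2772 genes reached 50 CPM in HSC-like cells or Mpo progenitors, of which 566 were higher and 798 lower in HSC-like cells in every library. On the log2 scale with 10 CPM added, the mean ratio was 4.09 for Hlf and 3.17 for Meis1, both in the gate, and outside it 3.71 for Ctla2a, 3.70 for Ly6a, 3.51 for Myl10, 3.44 for Pdzk1ip1 and 3.08 for Gimap6, a GTPase gene of lymphoid cells. Wfdc17 (2.96), Gimap1 (2.86), Angpt1 (2.86), the lymphotoxin gene Ltb (2.67), Ifitm1 (2.64) and Gcnt2 (2.63) were also among the 15 highest. At the other end stood the primary granule genes of neutrophil precursors, namely Elane (-7.64), Ctsg (-6.16) and Prtn3 (-4.34), together with Mpo itself (-6.77), which the gate limits. Prss34 (-4.76), Ms4a3 (-4.11), Cst7 (-3.57), Alas1 of haem synthesis (-3.39) and, with no UMI at all in HSC-like cells, Gm11505 (-3.98) and the eosinophil granule gene Prg2 (-3.54) followed.

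Transcripts of several lineages were detected, and their shares of cells are set beside those of B lineage cells, which are shallower. Flt3, the receptor that marks multipotent progenitors turning towards lymphoid fate, was found in 40 cells, at 101, 79.1, 27.7 and 110 CPM in TLR9-/- 1, TLR9-/- 2, WT 1 and WT 2, with WT 1 resting on 2 UMIs. It was detected in 15.4 to 43.3% of the HSC-like cells of a library and in 1.18 to 2.45% of B lineage cells. Its mean of 79.4 CPM compares with 328 CPM in lymphoid-primed progenitors, which were chosen on it. Dntt, the terminal transferase of antigen receptor assembly, was found in 15 cells (70.7 CPM against 901 CPM), 7.69 to 15.4% per library against 6.30 to 9.30% of B lineage cells, some of which use it. Il7r, the interleukin-7 receptor gene of lymphoid precursors, was found in 4 cells, at most 5.13% per library and below the 20.7 to 34.0% of B lineage cells, and the recombinase genes Rag1 and Rag2 in none. Sox4, a transcription factor of early lymphoid and stem cells, averaged 208 CPM in 70 cells, 59.3 to 69.2% per library against 26.02 to 38.8% of B lineage cells. Myl10 averaged 209 CPM in 61 cells, 44.4 to 69.2% against 4.23 to 6.48%. Of 23 lymphoid priming genes, 17 were lower than in lymphoid-primed progenitors in every library and none higher, against 9.05% lower and 5.89% higher among all genes with a UMI in HSC-like cells. Against Mpo progenitors 10 of the 23 were higher and 2 lower, beside 13.1% and 10.9% of all genes. Flt3 was found with Ly6a in 26 cells.

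On the myeloid side, Prtn3 (proteinase 3) was found in 92 of the 109 cells at 624, 647, 526 and 528 CPM, an even level that was still far below the 11970 CPM of Mpo progenitors. It was detected in 81.5 to 87.2% of HSC-like cells per library and in 5.58 to 15.3% of B lineage cells. Elane (neutrophil elastase) was found in 17 cells, with 55 UMIs, of which 13 remained when the neutrophil-rich cells were left out. Its shares of 5.13, 22.2, 7.69 and 26.7% per library lay near those of the B lineage cells, 5.88 to 21.1%, so that Elane was at background. Of 24 myeloid priming genes, 21 were lower than in Mpo progenitors in every library and 1 higher, beside 10.9% lower and 13.1% higher among all genes with a UMI in HSC-like cells. Among megakaryocyte and erythroid genes, Car2 (carbonic anhydrase 2) was found in 72 cells at a mean of 377 CPM, with 48 of its 281 UMIs in 1 cell, and in at most 12.4% of the B lineage cells of a library. Itga2b (CD41) was found in 11 cells, with 6 of its 19 UMIs in 1 cell, at 23.2 CPM against 894 CPM in megakaryocyte progenitors, which were chosen on it. Its shares were 7.69, 7.41, 0 and 20% per library, against 0.339 to 0.555% of B lineage cells, and the platelet genes Gp1bb and Ppbp were found in no cell. Of 23 such genes, 14 were lower than in megakaryocyte progenitors in every library and none higher, beside 7.44% and 6.71% of all genes.

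A G2 and mitosis programme was detected in a minority of the cells. After thinning to 2000 UMIs, which left out 3 shallower cells, at least 3 UMIs of mitotic genes were found in 37.1% and 30.04% of HSC-like cells in TLR9-/- 1 and 2 and in 27.7% and 33.9% in WT 1 and 2. The ranges of the genotypes overlapped, with means of 33.6% ± 5.01 and 30.8% ± 4.37 (SD, n = 2 libraries per genotype) and a difference of 2.81 percentage points (exact permutation test, two-sided, p = 0.667, where 0.333 is the smallest p that 2 against 2 libraries can give). Without the neutrophil-rich cells the shares were 35.9, 24.8, 13.9 and 25.4%, a difference of 10.7 points, and WT 2 still exceeded TLR9-/- 2 (exact permutation p = 0.667). With at least 3 gate UMIs, which left 57 cells, the shares were 38.7, 20.6, 17.4 and 13.4%, which did not overlap, a difference of 14.2 points (exact permutation p = 0.333, the smallest possible). This stricter gate also left out 9 of the 10 neutrophil-rich cells and kept the 1 in TLR9-/- 1. Mpo progenitors reached 63.4% in TLR9-/- and 57.1% in WT mice, lymphoid-primed progenitors 44.1 and 29.3%, and megakaryocyte progenitors 42.7 and 24.9%. In lymphoid-primed and megakaryocyte progenitors both TLR9-/- libraries lay above both WT libraries (exact permutation p = 0.333 for both, the smallest possible). The megakaryocyte progenitors numbered 8 in WT 1 and 8 in WT 2. At least 3 UMIs of DNA replication genes, such as the MCM helicase and PCNA genes, were found in 50.3, 58.8, 56.8 and 33.3% of HSC-like cells (54.5% against 45.0%, and 53.2% against 43.6% without the neutrophil-rich cells, exact permutation p = 0.667 for both), against 81.7% and 81.0% of Mpo progenitors. The shares of HSC-like cells did not overlap between genotypes with at least 3 gate UMIs (52.9% against 35.1%) or when 2 UMIs of these genes were enough (66.4% against 53.6%), with the smallest possible exact permutation p of 0.333 for both.

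**Figure D3:**
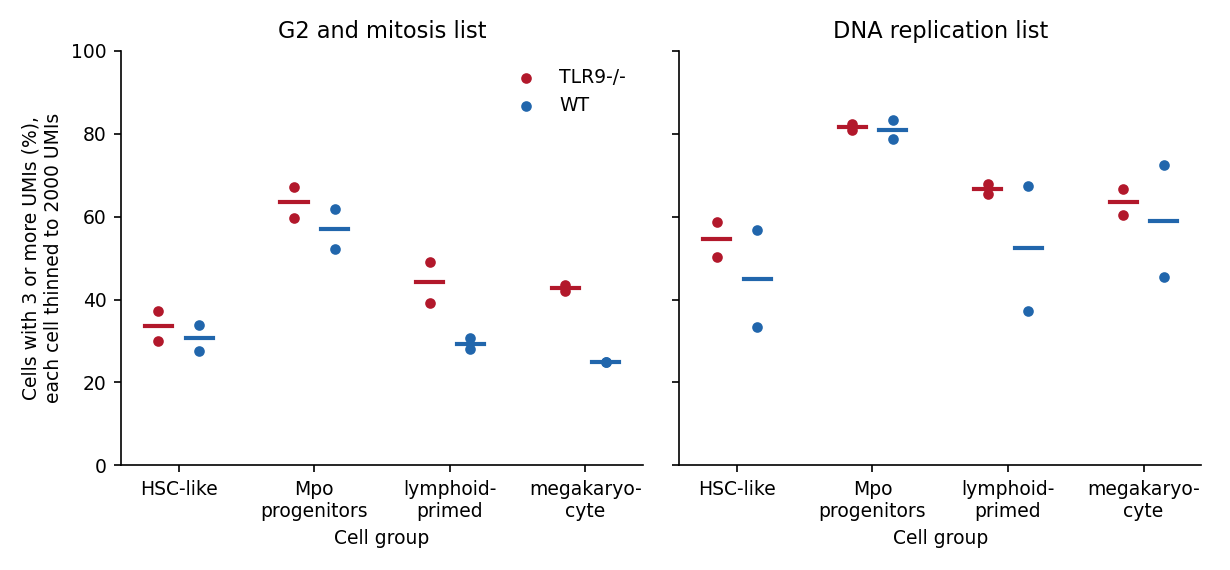
Percentage of cells with at least 3 UMIs of G2 and mitosis genes (left) or DNA replication genes (right) after thinning each cell to 2000 UMIs (y axis), for HSC-like cells and the comparison progenitors (x axis), with 1 point per library and a bar at each genotype's mean. On the mitotic list HSC-like cells lie between 27.7 and 37.1%, with TLR9-/- and WT libraries interleaved.

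Genes of innate sensing were sparse. No UMI of Tlr9 was found in any HSC-like cell, which for the 43 WT cells allows a share of up to 6.98% of cells with a UMI, and none of Tlr1, Tlr3, Tlr5, Tlr8 or Cd14. Tlr7, the endosomal sensor of single-stranded RNA, was found in 4 cells (at most 6.67% per library, against 1.15 to 2.53% of B lineage cells), Tlr2 in 3, and Tlr4 and Tlr6 in 1 each, whereas the shared adaptor Myd88 was found in 15 cells (26.8 CPM) and the chaperone gene Hsp90b1 reached 268 CPM. Unc93b1, which carries Tlr9 to endosomes, stood at 46.7 CPM against 224 CPM in the rest of the marrow. Of 37 interferon-stimulated genes, 14 were higher and 2 lower than in Mpo progenitors in all 4 libraries, and 4 were higher and 3 lower than in lymphoid-primed progenitors, beside 13.1% and 10.9%, and 5.89% and 9.05%, of all genes with a UMI in HSC-like cells. By mean level, Ifitm3 stood at 1072 CPM (328 CPM in Mpo progenitors), Rtp4 at 74.6 CPM (8.85 CPM), Irf7 at 42.0 CPM (5.67 CPM) and Ifi44 at 23.4 CPM (1.02 CPM). Rtp4, Irf7 and Ifi44 were named after their values were seen, and rested on 53, 26 and 18 UMIs in HSC-like cells. In WT 1, 3 UMIs already correspond to 41.5 CPM. Of the inflammatory cytokine genes, Ccl4 was found in 32 cells with 74 UMIs, of which 46 lay in TLR9-/- 1, and Ccl3 in 19 cells with 38 UMIs. Tnf had 3 UMIs, Cxcl10 1, and Il1b and Cxcl2 none. Ccl4 was detected in at most 2.25% of the B lineage cells of a library.

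Immediate early genes, which are induced within minutes of stimulation, differed between the libraries of a genotype. Fos, a subunit of AP-1, stood at 444, 23.3, 55.3 and 94.1 CPM in TLR9-/- 1, TLR9-/- 2, WT 1 and WT 2, on 101, 5, 4 and 18 UMIs, and Junb at 338, 37.2, 83.0 and 94.1 CPM. For both, TLR9-/- 1 was the highest and TLR9-/- 2 lay below both WT libraries. Ier2 stood at 479, 83.8, 346 and 120 CPM and Jund, another AP-1 subunit, at 105, 27.9, 194 and 67.9 CPM, so for these WT 1 was high as well. The genotype comparison of Fos gave a log2 fold change of 1.37 (SE 1.02, edgeR adjusted p = 0.921), which became -1.84 without TLR9-/- 1, 2.25 without TLR9-/- 2 and 1.07 without the neutrophil-rich cells. Egr1, which encodes an early response factor linked to stem cell quiescence, stood at 96.7, 23.3, 69.1 and 15.7 CPM. The libraries numbered 1 were thus both above those numbered 2. Myc, also counted among the early response genes, gave 98, 32, 5 and 25 UMIs, and the genotypes did not overlap in level. Its log2 fold change was 1.27 (SE 0.54, edgeR adjusted p = 0.837), and 1.07 without the neutrophil-rich cells.

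The share of HSC-like cells overlapped between the genotypes under the gate as stated, and whether it overlapped depended on the gate. They made up 0.362% (95% exact binomial interval 0.257 to 0.494) and 0.303% (0.200 to 0.440) of the kept cells in TLR9-/- 1 and 2, and 0.123% (0.0655 to 0.210) and 0.337% (0.228 to 0.481) in WT 1 and 2. WT 2 lay between both TLR9-/- libraries and WT 1 was the lowest. The means were 0.332% ± 0.0417 and 0.230% ± 0.152 (SD, n = 2 libraries per genotype), a difference of 0.102 percentage points (exact permutation test, two-sided, p = 0.667). Without WT 1 the difference was -0.00502 points. WT 1 was also the shallowest library, and after thinning every cell to 2000 UMIs the shares were 0.303, 0.170, 0.138 and 0.297%, a difference of 0.0194 points (p = 0.667 by the same exact permutation test). Without the neutrophil-rich cells they were 0.352, 0.280, 0.104 and 0.281% (exact permutation p = 0.667). In 3 other settings the TLR9-/- libraries were both above the WT libraries, with the smallest p that the exact permutation test allows, 0.333. The shares were 0.186, 0.202, 0.0662 and 0.169% with at least 3 gate UMIs, 0.0923, 0.0710, 0.0271 and 0.0684% after thinning to 1000 UMIs, and 0.241, 0.191, 0.0567 and 0.0787% without cells carrying at least 3 UMIs of another cell type, which left 7 of the 30 cells of WT 2.

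The lineage limits of the gate bore on this share. Of all cells with at least 2 stem cell UMIs, 175 were turned away, 67 and 73 in TLR9-/- and 13 and 22 in WT mice. Mpo turned away 34, 48, 4 and 10 cells, and Cd79a with Cd79b 36, 39, 11 and 15. Without these limits, a setting added after seeing the data, the shares were 0.983 and 1.12% in TLR9-/- and 0.246 and 0.585% in WT mice, which did not overlap (1.05% ± 0.0977 against 0.415% ± 0.239, exact permutation p = 0.333, the smallest possible). Thinned to 2000 UMIs, the same cells made up 0.427, 0.241, 0.178 and 0.366%, with the genotypes overlapping again (exact permutation p = 0.667). Of the 96 cells over the Mpo limit, the 51 that met all other limits had 634 CPM of Ifitm1, detected in 90.2% of them, and 31.7 CPM of Ly6a.

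**Figure D4:**
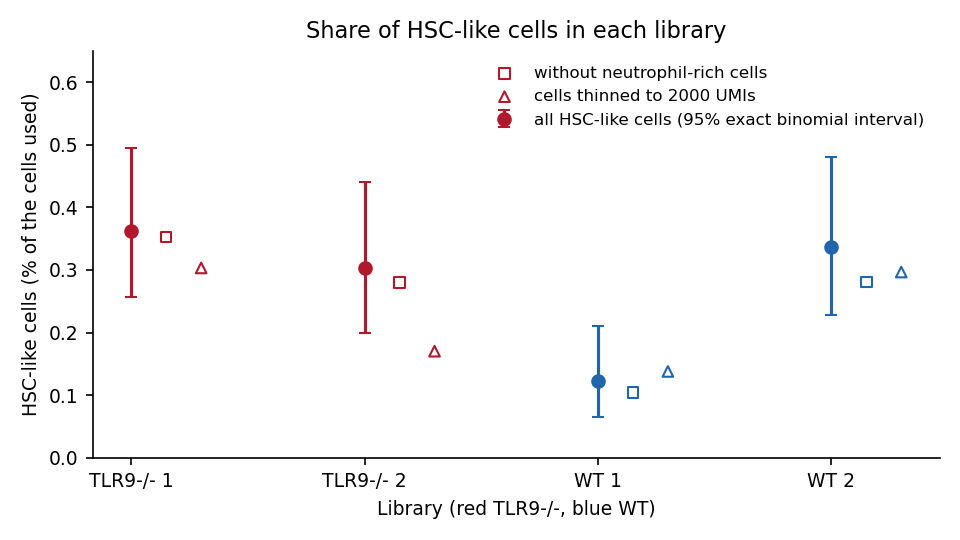
HSC-like cells as a percentage of the kept cells of each library (y axis), as filled points with 95% exact binomial intervals that cover counting error only, and as open squares without the neutrophil-rich cells and open triangles after thinning to 2000 UMIs. WT 1 is lowest at 0.123% and WT 2, at 0.337%, lies between TLR9-/- 2 and TLR9-/- 1.

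Between the genotypes, no gene passed the test in the summed UMIs of HSC-like cells. Of 2750 genes tested with edgeR's quasi-likelihood test, none reached a Benjamini-Hochberg adjusted p under 0.05 in either direction (0%), 153 (5.56%) had an unadjusted p under 0.05, and DESeq2 called none, with 38 genes at an unadjusted p under 0.05. In both TLR9-/- libraries 534 genes (19.4%) lay above both WT libraries and 440 (16%) lay below. In data simulated at these depths, 53 of 66 genes changed 8-fold, 40 of 67 changed 4-fold and 11 of 67 changed 2-fold were recovered. Of these genes, 54, 57 and 58 passed the filter on low counts. Changes of 2-fold were thus mostly not detectable. All genes were simulated with the same dispersion, 0.0537, and 7 unchanged genes were called. Genes that vary more than that between libraries were not simulated, so recovery for them is not known. The count of calls was 18 without TLR9-/- 1, 41 without TLR9-/- 2, 25 without WT 1 and 5 without WT 2, with the remaining single library assumed to vary like the pair.

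BC018473, a gene known by a clone name (ENSMUSG00000056032, chr11:116752167-116759373 on GRCm38), had the smallest p. It gave 39 UMIs in 21 cells of TLR9-/- 1 and 30 UMIs in 12 cells of TLR9-/- 2, and no UMI in either WT library. It was at least 13.7-fold higher in TLR9-/- mice, against 3 UMIs over the WT libraries together, and it did not pass the test (edgeR adjusted p = 0.186). Over all kept cells it had 7673, 14319, 2 and 0 UMIs, so its presence in TLR9-/- libraries was not limited to HSC-like cells. Mid1, an X-linked ubiquitin ligase gene, gave 21, 26, 1 and 4 UMIs in TLR9-/- 1, TLR9-/- 2, WT 1 and WT 2 (log2 fold change 2.33, SE 0.52, edgeR adjusted p = 0.837), and over all kept cells 2768, 3971, 304 and 561 UMIs.

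For Tmem14c and Mgst3, part of the UMIs lay in single cells. Tmem14c, a mitochondrial membrane protein of haem synthesis, gave 83 UMIs in TLR9-/- 1 and 75 in TLR9-/- 2, of which 26 and 38 lay in 1 cell each, and 8 and 23 in WT mice (log2 fold change 1.48, SE 0.30). Mgst3, a microsomal glutathione transferase gene, gave 38 and 36 UMIs, of which 17 and 29 lay in the same cells, against 4 and 5 in WT mice (log2 fold change 2.11, SE 0.43). Lmo2, which encodes a bridging factor needed for stem cell formation, was spread over more cells, at 673, 558, 346 and 282 CPM, with the genotypes not overlapping (log2 fold change 0.87). The Lmo2 difference was 0.60 without the neutrophil-rich cells, 0.37 in cells with at least 2 gate genes and 0.26 in those with at least 3 gate UMIs. None of Tmem14c, Mgst3 and Lmo2 passed the test (edgeR adjusted p = 0.837 for each). Without the 11 HSC-like cells that carried at least 3 UMIs of erythroid or of T and NK cell markers, the log2 fold change was 0.45 for Tmem14c.

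The genes lower in TLR9-/- mice included those of the neutrophil-rich cells. Tyrobp, a signalling adaptor of myeloid cells, gave 74, 56, 70 and 114 UMIs, a log2 fold change of -1.51 that became -0.72 without the 10 neutrophil-rich cells. The alarmin gene S100a8 stood at -2.12 and Prdx5, a peroxiredoxin gene, at -1.40. Without those cells Prdx5 stood at 0.34 and S100a8 at -1.90, the latter on 15, 7, 3 and 37 UMIs, of which WT 2 held most. In cells with at least 3 gate UMIs S100a8 turned to 4.07. That gate left out 9 of the 10 neutrophil-rich cells and kept the 1 in TLR9-/- 1. TLR9-/- 1 held 959 UMIs of S100a8 with that cell and 15 without it. Without the neutrophil-rich cells Lyz2 (lysozyme) turned from -0.90 to 2.24. It then rested on 228, 44, 6 and 19 UMIs, of which 114 lay in 1 cell of TLR9-/- 1. The stem cell genes Ly6a and Kit kept their sign. Ly6a stood at a log2 fold change of -0.98 with the neutrophil-rich cells and -1.19 without them, and Kit at -0.97 and -1.13, and neither passed the test (edgeR adjusted p = 0.837 with those cells for both). The other genes with the smallest p that were lower were Mgst1 (-1.58), Wdr26 (-1.74), Hcst (-1.40), Tmsb4x (-1.17), Sh3bgrl3 (-1.10), Lamtor4 (-1.04), Mcemp1 (-2.60), Ywhag (-1.26), Plaur (-2.12), Cltc (-1.56) and Got2 (-1.41). All 36 UMIs of Mcemp1 lay in the neutrophil-rich cells, as did all but 6 of the 31 of Plaur. Without those cells Hcst stood at -0.39, Tmsb4x at -0.41, Wdr26 at -0.92, Lamtor4 at -0.59 and Sh3bgrl3 at -0.67, while Ywhag stood at -1.27 and Got2 at -1.53, and Mgst1, Mcemp1, Plaur and Cltc were not tested. Those that were higher were Snrnp40 (2.06), Cd53 (1.89), 1500011B03Rik (1.39), Dnaja2 (1.21) and Hat1 (1.53). Without the neutrophil-rich cells Snrnp40 stood at 1.94, 1500011B03Rik at 1.23, Dnaja2 at 1.24 and Hat1 at 1.19, while Cd53 was left with 23, 13, 0 and 1 UMIs, too few in WT mice for a fold change. With at least 3 gate UMIs Dnaja2 stood at 0.35 and 1500011B03Rik at 0.85.

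**Figure D5:**
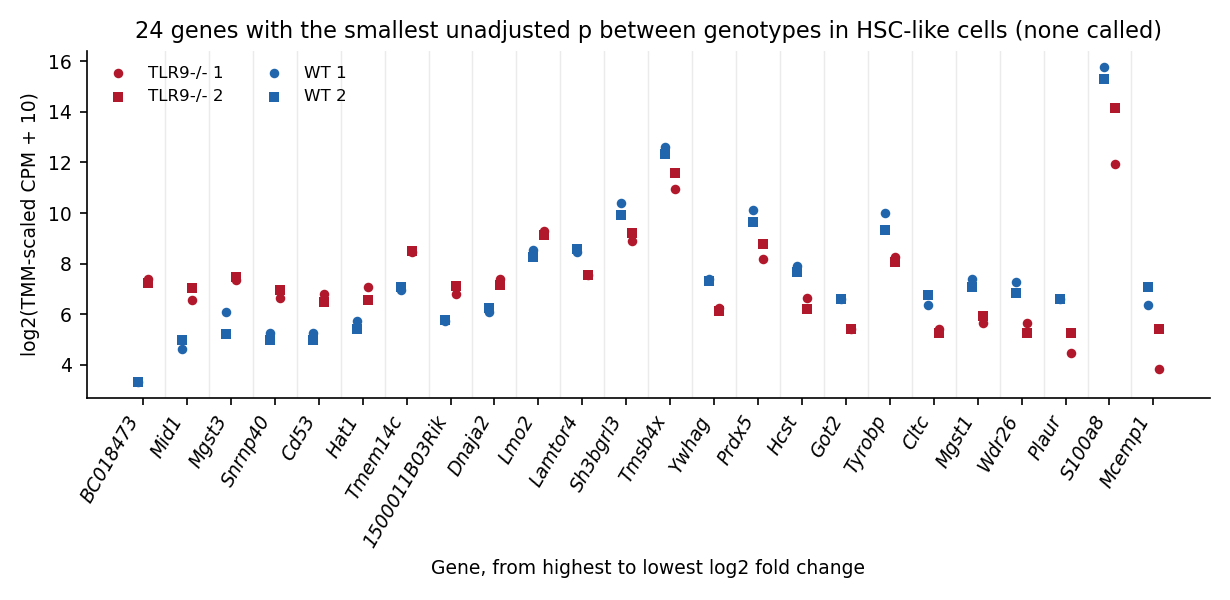
Levels, as log2(TMM-scaled CPM + 10), in the HSC-like cells of each library for the 24 genes with the smallest p in the genotype comparison, with 1 point per library. BC018473 has no UMI in the WT libraries, and no gene shown passed the test.

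By list, the log2 fold changes are set beside those of all genes tested, whose median was 0.02 with 51.8% above 0. Of 22 stem cell genes tested, 12 were higher in TLR9-/- mice (median 0.05, and -0.15 without the neutrophil-rich cells), and of 13 lymphoid priming genes 9 were (median 0.12). Of 16 myeloid priming genes 3 were higher, with a median of -0.41 that became -0.09 over the 9 genes tested without the neutrophil-rich cells. Of 19 DNA replication genes 16 were higher (median 0.46), and of 19 G2 and mitosis genes 10 were (median 0.05, and 0.64 over the 10 tested without the neutrophil-rich cells). Of 8 AP-1 and early response genes 7 were higher (median 0.55). The 12 interferon-stimulated genes tested had a median of 0.00 and the 8 NF-kB targets 0.24, of which 6 and 4 were higher, and without the neutrophil-rich cells these medians were -0.25 and 0.40. Of 8 megakaryocyte and erythroid genes 3 were higher (median -0.14), of 9 cytokine receptor genes 3 (median -0.07), of 7 chromatin regulators 6 (median 0.06) and of 3 genes of the TLR pathway 2 (median 0.01).

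Most of these medians moved with single libraries. Without TLR9-/- 1 the median was -1.32 for the AP-1 and early response genes, -0.44 for the interferon-stimulated genes, -0.34 for the G2 and mitosis genes, -0.37 for the TLR pathway, -0.14 for the NF-kB targets, -0.11 for the lymphoid priming genes and 0.28 for the megakaryocyte and erythroid genes. Without TLR9-/- 2 it was 0.05 for the DNA replication genes, -0.71 for the myeloid priming genes, 0.53 for the NF-kB targets, 1.40 for the AP-1 genes, 0.21 for the TLR pathway and -0.28 for the megakaryocyte and erythroid genes. Without WT 1 it was 0.73 for the DNA replication genes, 0.23 for the interferon-stimulated genes, 0.27 for the chromatin regulators, 0.16 for the stem cell genes and -0.39 for the cytokine receptors. Without WT 2 it was -0.32 for the G2 and mitosis genes, -0.35 for the interferon-stimulated genes, -0.09 for the chromatin regulators, 0.40 for the lymphoid priming genes, 0.11 for the megakaryocyte and erythroid genes and -0.67 for the cytokine receptors. In all settings run, the median stayed above 0 for the DNA replication genes and below 0 for the cytokine receptors, and for every other list it changed sign in at least 1 setting, for the myeloid priming genes only without cells carrying 3 UMIs of another cell type (0.02). No gene of any list passed the test. Among the genes that the study discusses in stem and progenitor cells, Flt3 stood at -0.01, Sox4 at 0.08, Satb1 at 0.18, Myl10 at -0.05, Cd9 at -0.13, Elane at -0.40, Jun at 0.22, Egr1 at 0.81, Cebpb at -0.88 and Cebpd at -0.21, and none passed the test.

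Whether a genotype difference was particular to HSC-like cells was tested by the interaction of genotype with cell group, with the mouse as a term. Of 7338 genes tested against Mpo progenitors, 4 (0.0545%) passed the threshold. In Mpo progenitors alone, 24 of 9218 genes (0.26%) passed, among them Mid1 (log2 fold change 2.88, edgeR adjusted p = 7.31e-04), whose interaction was -0.35 (adjusted p = 1). Blvrb, which encodes biliverdin reductase B, Mgst3 and Tmem14c had a more positive difference between TLR9-/- and WT mice in HSC-like cells than in Mpo progenitors. For Tmem14c the log2 fold change was 1.48 in HSC-like cells and -0.18 in Mpo progenitors, for Mgst3 2.11 and -0.45, and for Blvrb 1.63 and -0.91, and none of these 3 genes passed the test within either group alone. Blvrb had 38, 75, 9 and 10 UMIs in the HSC-like cells of TLR9-/- 1, TLR9-/- 2, WT 1 and WT 2. Ccl5, a chemokine gene of T and NK cells, went the other way, with 1, 0, 24 and 1 UMIs in HSC-like cells and 135, 9, 2 and 0 in Mpo progenitors.

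Part of the UMIs behind these 4 calls lay in single cells. In TLR9-/- 1, 1 HSC-like cell, which was also the neutrophil-rich one, held 19 UMIs of Blvrb, 17 of Mgst3 and 26 of Tmem14c, together with 36 of Car2 and 395 of haemoglobin and other erythroid genes. In TLR9-/- 2, 1 cell held 65, 29 and 38 UMIs of the same 3 genes, 40 of Car1, 48 of Car2 and 221 of erythroid genes. All 24 Ccl5 UMIs of WT 1 lay in 1 cell, which also held 9 UMIs of T and NK cell markers and 12 of Nkg7, a cytotoxic granule gene, beside 3 UMIs of Hlf and 9 of Ifitm1. Without the HSC-like cells carrying at least 3 UMIs of erythroid or of T and NK cell markers, a setting added after seeing the data, 37, 26, 9 and 26 cells were left. None of 7752 genes then passed the interaction test, with 315 at an unadjusted p under 0.05, and the difference was 0.67 for Tmem14c, 0.91 for Mgst3 and 0.75 for Blvrb (edgeR adjusted p = 1 for each), while Ccl5 was not tested. With all HSC-like cells, the number of calls was 4, 13, 2 and 1 without TLR9-/- 1, TLR9-/- 2, WT 1 and WT 2, and 2, 3, 0 and 1 of these were among the 4.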

How the data were processed

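The authors deposited gene by barcode matrices of UMI counts, 1 per library, written by Cell Ranger 3.0.1 according to the file headers. The submitters' processing notes also name STAR, the mm10 build and Seurat 2.3.4. The deposited counts were used as raw counts, and cell groups were rebuilt from UMIs by the gates stated. The members and gene lists were chosen with earlier results of these data known. UMIs were summed per library and cell group, because cells of 1 mouse are not replicates, and tested with edgeR 4.0.16 (quasi-likelihood test, TMM scaling, filterByExpr, Benjamini-Hochberg adjustment over all genes tested), with DESeq2 1.42.0 as an alternative, in R 4.3.3. CPM in the text are a gene's UMIs over all UMIs of the summed cells, on the usual CPM scale and without further scaling. The edgeR p-values between genotypes rest on 2 mice per genotype, with each gene's spread estimated in part from other genes. In the interaction the mouse term takes up differences in level between mice. Its p-values rest on the spread of the difference between the 2 cell groups. Shares were tested by an exact permutation test over libraries. Thinning to 2000 UMIs was averaged over 100 draws. Doublets were kept; a nearest-neighbour procedure after Scrublet, at an expected rate of 0.8% per 1000 cells, marked 930, 636, 894 and 633 cells of the 4 libraries, 5 of them HSC-like. No HSC-like barcode was shared between the HSC-like cells of different libraries. Genes named for the genotype comparison were the 24 with the smallest p among those with a mean of at least 50 CPM, since none passed the test. For the description against Mpo progenitors they were the 15 highest and 10 lowest ratios with 1 direction in all 4 libraries. Some of these are not reported here. Of each list the tested members with the highest level and the genes discussed by the study were eligible. Further members named for their role or distribution (Slamf1, Tek, Il7r, Rag1, Blvrb and the like) were chosen after their values were seen. The test was checked on simulated counts of 2783 genes. Intervals and floors (3 UMIs) cover counting error only. Mouse promoter sequence is from RefSeq.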

Additional observations from a re-analysis of the deposited data

Results flagged for a closer look

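For 4 genes the difference between TLR9-/- and WT mice itself differed between HSC-like cells and Mpo progenitors in edgeR's interaction test over 4 libraries. The log2 fold change in HSC-like cells minus that in Mpo progenitors was -10.75 for Ccl5 (SE 1.16, adjusted p = 4.82e-08), 2.57 for Blvrb (SE 0.38, adjusted p = 8.58e-05), 2.61 for Mgst3 (SE 0.47, adjusted p = 0.00423) and 1.66 for Tmem14c (SE 0.31, adjusted p = 0.00686). Of the 26 Ccl5 UMIs of HSC-like cells, 24 came from 1 cell of WT 1. Tmem14c was detected in 28, 17, 5 and 12 HSC-like cells of TLR9-/- 1, TLR9-/- 2, WT 1 and WT 2. Without the HSC-like cells carrying at least 3 UMIs of erythroid or of T and NK cell markers, none of the 4 passed. All 4 were among the 17 calls made without the neutrophil-rich cells. Against lymphoid-primed progenitors 1 gene was called, which was none of the 4.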

How the results depend on the processing

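The differences in the share of HSC-like cells and in the share in G2 or mitosis kept their direction in every setting run that used all 4 libraries. Leaving out 1 library gave share differences between -0.00502 and 0.209 points and mitotic differences between -0.739 and 6.35 points. The genotype test made 0 calls with TMM, DESeq2 size factors, DESeq2, stricter gates, filters or cells, and 23 with no filter on low counts (9 higher, 14 lower); leaving out 1 library gave 5 to 41. The interaction made 1 call against lymphoid-primed progenitors, 13 with no filter on low counts, 17 without the neutrophil-rich cells (16 higher and 1 lower, with all 4 genes with calls among the 17), 0 without cells carrying erythroid or T and NK cell UMIs, and 1 to 13 when 1 library was left out. The causes were not tested. Library numbers were not treated as pairs: the deviations of same-numbered libraries correlated at 0.10, a single value since 2 libraries of a genotype deviate by opposite amounts, and a fit with the replicate number as a block made 0 calls, with 147 genes at an unadjusted p under 0.05. Under that block Flt3 stood at 0.0600 and the median of the AP-1 list at 0.17 in place of 0.55.

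The log2 fold changes that changed sign in settings with all libraries were Flt3 0.22 and Myl10 0.0174 with DESeq2; Flt3 0.0928, Cd9 0.00693 and Myl10 0.0659 with no filter; Sox4 -0.00538 with at least 10 UMIs; Prdx5 0.48, S100a8 4.07, Lyz2 1.94, Cd9 0.87, Sox4 -0.79 and Jun -0.40 with at least 3 gate UMIs; Jun -0.26 with at least 2 gate genes; Cd9 0.16 without marked doublets; Flt3 0.00747 in cells with at least 2000 UMIs; Prdx5 0.96, Lyz2 0.35 and Myl10 0.32 without cells carrying 3 UMIs of another type; Myl10 0.17 and Cebpd 0.17 without cells carrying erythroid or T and NK cell UMIs; and Prdx5 0.34, Lyz2 2.24, Cd9 1.08 and Sox4 -0.12 without the neutrophil-rich cells. Of the neutrophil-rich cells, the setting with at least 3 gate UMIs kept only 1, which was in TLR9-/- 1. With 1 library left out, Fos ranged from -1.84 to 2.25, Elane from -3.39 to 1.23, Flt3 from -0.39 to 1.56, Egr1 from -0.32 to 1.79, Cebpb from -2.27 to 0.0108, Cebpd from -1.03 to 0.35, Cd9 from -0.95 to 0.78, Jun from -0.46 to 0.64, Myl10 from -0.64 to 0.33, Satb1 from -0.20 to 0.62 and Sox4 from -0.0878 to 0.22.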
